A study of Mus musculus with 32 samples.

Results

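Lipid droplet coat and CIDE proteins were followed through the mRNA of 10 genes in mouse liver. They are the perilipins Plin2, Plin3, Plin4 and Plin5, the CIDE genes Cidea, Cideb and Cidec, the lipase Pnpla2, its inhibitor G0s2, and Fitm2, which acts in droplet formation. The members were all non-control probes that the array names for these genes, 13 of 55681, and all 10 genes passed the filter on dim probes and stood among 21071 tested genes. Liver RNA from male C57Bl/6 mice, 8 weeks old at the start, was hybridized to 32 arrays, 4 in each of 8 groups. C mice ate chow and MCD mice a diet without methionine and choline for 3 weeks, and both were injected with saline for the last 2. The C+Fc-GLP-1 mice on chow and the M+Fc-GLP-1 mice on the MCD diet received Fc-GLP-1, a GLP-1 receptor agonist fused to an antibody Fc part, at 10 nmol/kg every 2 days per the methods, for the same 2 weeks. All 4 groups were sampled at a 70% partial hepatectomy (PH) and again 2 weeks after PH, with diet and injections continued per the methods. The mice sampled after PH are those that lived through it. The study states 4 mice per group for its array comparisons, while the labels do not tie samples to single mice. The p-values measure only the spread between these samples. Other fields of the labels name an agent that acts on both the glucagon and the GLP-1 receptor (4.4 mg/kg daily). The source label of the C+Fc-GLP-1 mice after PH also says that they received a dual agonist after PH. That of the M+Fc-GLP-1 mice says that the same treatment went on. These values cannot settle the conflict, which touches every comparison that includes C+Fc-GLP-1 mice after PH.

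Values are log2 signals of the scanner software minus the 75th percentile of the array (log2 levels below), so that 0 is the level of a probe at that percentile. Levels are compared within a probe, never between genes. The share of probes well above background ran from 36.3% to 69.2% over the arrays. Each group lay on a single slide. C and MCD arrays before PH shared a slide, as did the arrays of both drug-treated groups before PH and again after PH. C and MCD arrays after PH lay on slides of their own and were read on another scanner than the rest. Slide and group therefore cannot be told apart in the effects of Fc-GLP-1, in the effect of diet in untreated mice after PH, or in changes over time. The test was limma, fitted to all 8 groups together, with Benjamini-Hochberg adjustment over all tested genes and a threshold of 0.05.

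Lipid droplets store triglycerides and cholesterol esters under a single layer of phospholipids, and proteins on that layer decide how fast the store is emptied. Perilipins coat the droplet and limit the access of lipases. CIDE proteins act where droplets meet, where CIDEA and CIDEC move lipid from a smaller to a larger droplet, while CIDEB, the usual CIDE protein of hepatocytes, also takes part in the lipidation of VLDL. PNPLA2 (ATGL) takes the first step of triglyceride hydrolysis. Several of these genes are known targets of the nuclear receptors PPARA and PPARG, which bind as pairs with RXR to a direct repeat spaced by a single base, called DR1. In a fatty liver, Plin2, Plin4, Plin5 and Cidec are commonly higher.

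Positions are those of the RefSeq annotation of GRCm38. Plin4 (chr17:56100587-56109948) and Plin5 (chr17:56111597-56117606) are neighbours, with 1648 bases and no gene between them. Plin3 lies on the same chromosome (chr17:56278962-56290511). Cidec is at chr6:113424634-113435760 and Cideb at chr14:55754052-55758424. Plin2 is at chr4:86626910-86670217, G0s2 at chr1:193272160-193273188, Pnpla2 at chr7:141455188-141460743 and Fitm2 at chr2:163468703-163472629. RefSeq promoter windows, from 250 bases before to 50 bases after a transcript start, were at hand for 9 of the 10 genes (11 windows).

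Both strands of these windows were searched for the DR1 letters, AGGTCA repeated after 1 free base (N). Plin2, Plin5 and Cidec were picked for display. Plin4, G0s2 and Pnpla2 were called higher on the MCD diet in as many of the 4 diet comparisons as Plin2 (3). None of the 11 windows held the letters with at most 1 mismatch, which 0.554% of all 32851 windows did. With at most 2 mismatches 1 of 11 did, that of Plin2, against 3.86% of all windows, and with at most 3 mismatches 7 of 11, against 24.6%. The best match in Plin4 had 4 mismatches, and those in Pnpla2 and Fitm2 had 5. Cideb and Plin3, not called higher in any diet comparison of the main test, had 3 mismatches, as did G0s2. The cAMP response element TGACGTCA, present in 1.79% of all windows, was in none of the 11. The best matches in Plin2 and in the first windows of Plin5 and Cidec are shown in capitals with the bases around them, in the direction of the gene (GRCm38, all on the minus strand of the genome, chr4:86670242-86670309, chr17:56117683-56117755 and chr6:113435932-113436004). A match of letters is a description of the window and says nothing about binding.
Plin2: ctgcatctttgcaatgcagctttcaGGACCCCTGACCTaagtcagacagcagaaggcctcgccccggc
Plin5: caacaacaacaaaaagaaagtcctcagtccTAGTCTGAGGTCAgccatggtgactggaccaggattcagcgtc
Cidec: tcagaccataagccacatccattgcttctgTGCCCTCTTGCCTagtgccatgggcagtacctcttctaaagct

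The largest differences within the family lay between the diets. In Cidec, the 16 arrays of chow-fed mice lay between -2.86 and 0.06 (median -1.38) and the 16 arrays of MCD-fed mice between 2.60 and 5.14 (median 3.85), with no overlap. Plin5 did not overlap either, but only just, with a highest chow value of 5.35 and a lowest MCD value of 5.36. In Plin4, 14 of 16 MCD arrays were above every chow array, in G0s2 11, in Pnpla2 10, in Fitm2 6 and in Plin2 3. Plin3 and Cidea had no MCD array above all chow arrays. Cideb ran the other way, with 3 of 16 MCD arrays below every chow array. The share of all genes whose arrays separate the diets in this way was not counted.

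**Figure D1:**
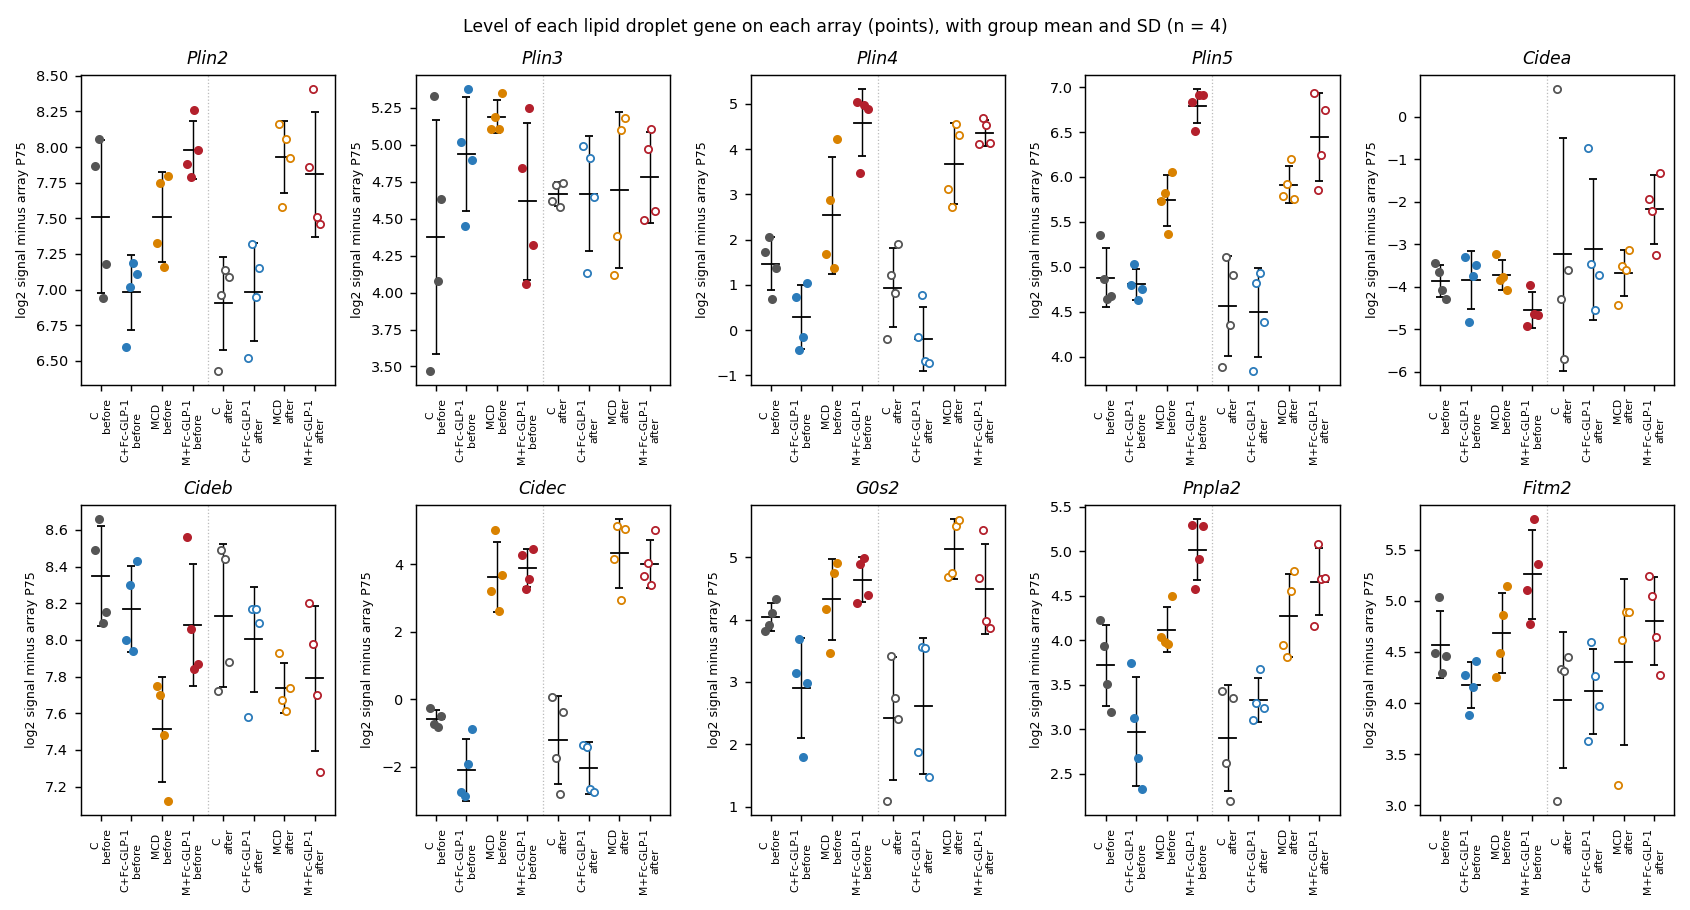
Level of the 10 genes on each of the 32 arrays, in 8 groups of 4 along the x axis, as log2 signal minus the array's 75th percentile (y axis, a scale of its own in each panel). Filled points are arrays before PH and open points arrays after PH, and the bars are the group mean and SD. Cidec separates the 2 diets in every pair of groups, from at most 0.06 in chow-fed to at least 2.60 in MCD-fed mice, and the Plin4 values of M+Fc-GLP-1 mice before PH include a single low array at 3.47.

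The first question was what the MCD diet alone does to these mRNAs before PH. In untreated mice 3 of the 10 members passed the test (2 higher, 1 lower), where 26.5% of all tested genes did, 10.9% higher and 15.5% lower. Their median difference was 0.34 on the log2 scale, against -0.13 over all genes. The share of members called was close to that of all genes, and Cidec stood far from the rest. Cidec levels were -0.26, -0.74, -0.83 and -0.50 in C mice and 3.20, 5.03, 2.60 and 3.67 in MCD mice. Cidec rose by 4.21 ± 0.58 (SE) on the log2 scale, 18.5-fold (adjusted p = 6.3e-06). Plin5, the perilipin that ties droplets to mitochondria, was at 5.35, 4.86, 4.64 and 4.67 in C and at 5.73, 5.82, 5.36 and 6.05 in MCD mice. The 4 MCD values of Plin5 were just above those of C mice, a rise of 0.86 ± 0.27 or 1.82-fold (adjusted p = 0.0188). This call was lost under normexp with quantile normalization (0.50, adjusted p = 0.225) and without C replicate 3, C replicate 4 or MCD replicate 4 (0.76 to 0.79, adjusted p between 0.0517 and 0.0632).

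Cideb was the only member that passed the test in the lower direction before PH. Its levels were 8.49, 8.66, 8.09 and 8.15 in C mice and 7.75, 7.70, 7.48 and 7.12 in MCD mice, without overlap. The difference was -0.83 ± 0.23 (adjusted p = 0.00917), and a second Cideb probe gave -1.05 ± 0.27 (adjusted p = 0.00467). This fall depended on how the arrays were scaled. It was -0.46 when arrays were centred on their median (adjusted p = 0.184), where the median of all genes moved from -0.13 to 0.24, so that Cideb stood 0.71 below that median under both centrings. Under normexp with quantile normalization it was -0.09 (adjusted p = 0.798), and in the authors' normalized values -0.10 (adjusted p = 0.82).

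The other members did not pass the test before PH in untreated mice. Plin2, the main perilipin of fatty hepatocytes, was at 7.87, 8.06, 6.94 and 7.18 in C and at 7.33, 7.75, 7.16 and 7.80 in MCD mice. The 2 sets of Plin2 values covered each other, with a 95% confidence interval of the difference from -0.53 to 0.52. Plin3 differed by 0.81 (0.17 to 1.46, adjusted p = 0.054) and Plin4 by 1.08 (-0.02 to 2.17, adjusted p = 0.136). Plin3 passed the test under normexp (1.47, adjusted p = 0.00554), under median centring (1.18, adjusted p = 0.00289), in the authors' normalized values (1.52, adjusted p = 0.0124) and without C replicate 2 (1.13, adjusted p = 0.00801). Plin4 passed it under median centring (1.44, adjusted p = 0.0311). Of the 8 groups the MCD mice before PH had the widest spread of Plin4 (SD 1.29, n = 4), with arrays at 1.69, 2.87, 1.38 and 4.22. G0s2 differed by 0.28, Pnpla2 by 0.40 and Fitm2 by 0.12, with overlapping groups.

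Markers of other cell types moved with the diet before PH, where 10.9% of all tested genes rose and 15.5% fell. All 7 macrophage markers rose, and their summed level was between 6.41 and 7.83 in MCD and between 5.11 and 5.93 in C mice. Of 6 stellate cell markers 3 rose, and of 5 hepatocyte markers 3 fell, with summed hepatocyte levels of 11.60 to 11.86 in MCD and 12.02 to 12.82 in C mice. Fewer cells of a type and less RNA per cell cannot be told apart in such bulk samples, and the part of these shifts in the members' differences was not tested. Cidec is also a gene of adipocytes. Of 7 adipocyte markers, Fabp4 and Lipe were well above background on 4 of 4 arrays of MCD mice before PH, Cfd on 3, and Adipoq, Lep, Plin1 and Retn on 0. The summed adipocyte level was 1.35 to 2.36 in these mice and 1.87 to 2.89 in C mice. In the MCD mice Fabp4 had by far the highest mean of these markers (1.85), followed by Lipe (-2.46), so that the sum mostly follows Fabp4. The part of adipocytes in the level of Cidec was not tested. In M+Fc-GLP-1 mice before PH the summed macrophage level was 4.67 to 5.98, but not every marker was near its level in C mice. The mean of Trem2 was 0.99 against -2.0 in C mice, and Gpnmb was well above background on 3 of 4 arrays against 0 of 4.

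The same comparison of diets in mice that received Fc-GLP-1 lay within a single slide. Here 7 of 10 members passed the test, all 7 higher in M+Fc-GLP-1 than in C+Fc-GLP-1 mice, against 10.4% of all genes (5.35% higher, 5.01% lower). The median difference was 1.41 over the members and 0.04 over all genes. Cidec values of -2.76, -2.86, -1.93 and -0.88 in C+Fc-GLP-1 mice stood against 4.28, 3.27, 3.57 and 4.46 in M+Fc-GLP-1 mice, a rise of 6.0 ± 0.58 or 64.2-fold (adjusted p = 4.49e-08). The size of this rise rests on dim C+Fc-GLP-1 values, with 3 of 4 arrays well above background. It was 4.61 under normexp (adjusted p = 6.06e-07) and between 4.58 and 6.41 over all alternatives. Plin4, a perilipin of nascent droplets, was at 0.73, -0.45, -0.15 and 1.03 in C+Fc-GLP-1 and at 5.04, 3.47, 4.97 and 4.88 in M+Fc-GLP-1 mice. These Plin4 groups were far apart, by 4.30 ± 0.54 or 19.7-fold (adjusted p = 2.32e-06). Plin5 rose by 1.99 ± 0.27 or 3.98-fold (adjusted p = 8.81e-06), with values of 4.63 to 5.03 against 6.51 to 6.91.

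Both the triglyceride lipase and its inhibitor were higher in the same comparison. Pnpla2 was at 3.75, 3.13, 2.68 and 2.33 in C+Fc-GLP-1 mice and at 5.30, 4.58, 4.91 and 5.29 in M+Fc-GLP-1 mice. The lipase mRNA thus rose by 2.05 ± 0.31 or 4.14-fold (adjusted p = 4.56e-05). G0s2, which blocks that lipase, rose by 1.73 ± 0.48 or 3.32-fold (adjusted p = 0.0185), from 1.80 to 3.69 in C+Fc-GLP-1 to 4.26 to 4.99 in M+Fc-GLP-1 mice. Without C+Fc-GLP-1 replicate 3 the difference of G0s2 was 1.37 (adjusted p = 0.0903), and without M+Fc-GLP-1 replicate 3 it was 1.62 (adjusted p = 0.056).

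Plin2 and Fitm2 were closer to the threshold. Plin2 was at 6.60, 7.02, 7.19 and 7.11 in C+Fc-GLP-1 and at 7.88, 7.79, 8.26 and 7.98 in M+Fc-GLP-1 mice, a rise of 1.00 ± 0.26 or 2.00-fold (adjusted p = 0.0112). These groups did not overlap, and the adjusted p of Plin2 was 0.0523 under normexp, 0.0513 under median centring and 0.062 in the authors' normalized values. Fitm2 rose by 1.08 ± 0.34 or 2.12-fold (adjusted p = 0.0402), and its second, dimmer probe by 1.66 ± 0.33 (adjusted p = 0.00118). The call of the first Fitm2 probe was lost without any 1 of C+Fc-GLP-1 replicates 1, 2 and 3 and M+Fc-GLP-1 replicates 1, 3 and 4 (0.90 to 1.13, adjusted p between 0.0567 and 0.133), and also under normexp, median centring or no filter on dim probes (adjusted p between 0.0782 and 0.15). Plin3 and Cideb did not pass the test, with differences of -0.32 and -0.08, and neither group had an array with Cidea well above background.

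**Figure D2:**
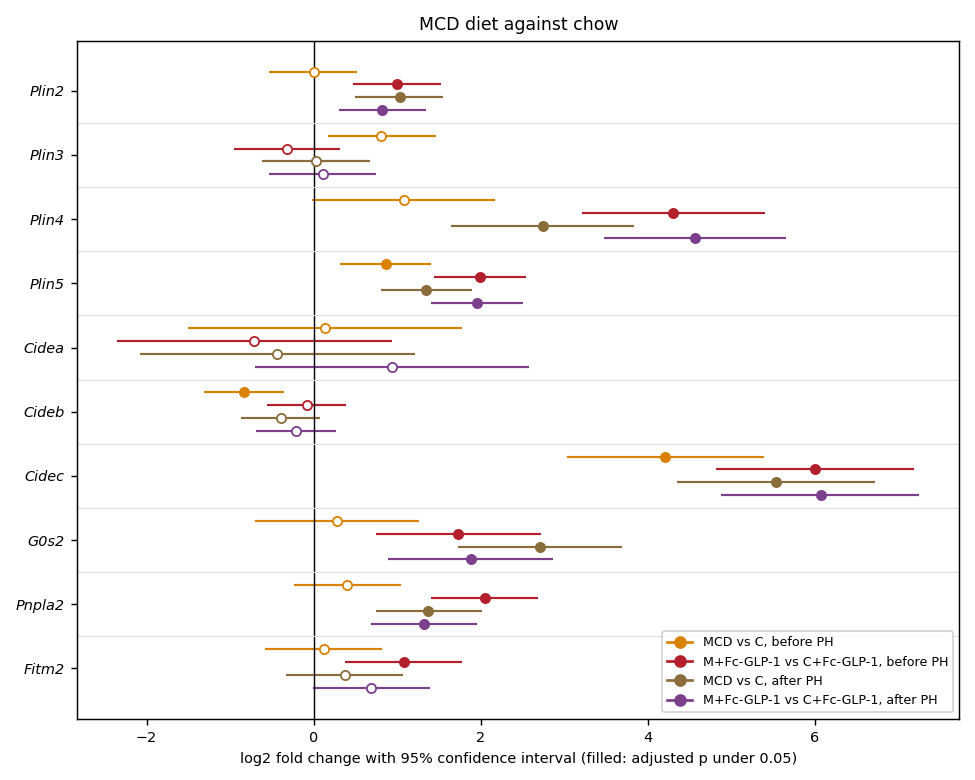
Difference between MCD-fed and chow-fed mice for the 10 genes (rows) in 4 pairs of groups, without and with Fc-GLP-1 and before and after PH, as log2 fold change with its 95% confidence interval (x axis), with filled points where the adjusted p was under 0.05. Cidec was higher in all 4 pairs, by 4.21 to 6.07, and Plin5 by 0.86 to 1.99, while Plin2, Plin4, G0s2 and Pnpla2 are filled in 3 pairs and open in untreated mice before PH.

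The second question was what Fc-GLP-1 does before PH in each diet. In chow-fed mice 0 of 10 members passed the limma test, against 2.11% of all genes, and 5 had an unadjusted p under 0.05, against 18.1% of all genes. These 5 were Plin2 (-0.53), Plin4 (-1.17), Cidec (-1.52), G0s2 (-1.14) and Pnpla2 (-0.75), each lower in C+Fc-GLP-1 than in C mice. The 4 C+Fc-GLP-1 arrays lay below all C arrays in Cidec and in G0s2, and overlapped them in the other 3. How many of all genes lacked overlap in this comparison was not counted. Under normexp with quantile normalization 2 members passed, G0s2 (-1.65, adjusted p = 0.0181) and Plin5 (-0.88, adjusted p = 0.0477), and in the authors' normalized values the same 2 genes passed (-1.65 and -0.76). The share of all genes that passed was 11.7% under normexp and 10.5% in the authors' values.

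In MCD-fed mice 2 of 10 members passed the test, both higher with the drug, against 7.22% of all genes (4.43% higher, 2.79% lower). These were the neighbours Plin4 and Plin5. Plin4 values of 1.69, 2.87, 1.38 and 4.22 in MCD mice stood against 5.04, 3.47, 4.97 and 4.88 in M+Fc-GLP-1 mice, a rise of 2.05 ± 0.54 or 4.15-fold (adjusted p = 0.0201), with overlap in 1 array of each group. Plin5 values of 5.73, 5.82, 5.36 and 6.05 stood against 6.84, 6.51, 6.91 and 6.91, a rise of 1.05 ± 0.27 or 2.07-fold (adjusted p = 0.0183), without overlap. Cidec, by contrast, was at similar levels in both groups, with a difference of 0.27 and a 95% confidence interval from -0.91 to 1.45. Pnpla2 was higher by 0.90 without overlap, which did not pass the test (adjusted p = 0.0706) except under normexp (1.26, adjusted p = 0.0369), in the authors' values (1.28, adjusted p = 0.0399), with no filter on dim probes (adjusted p = 0.0464) and without M+Fc-GLP-1 replicate 2 (1.05, adjusted p = 0.0487). Under normexp 5 members passed, where 12.5% of all genes did, and in the authors' values 6, where 11.2% did. Gained under both were Fitm2 (1.07 and 1.07), Plin2 (0.74 and 0.79) and Pnpla2, higher, and Plin3, lower (-1.26 and -1.34).

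These 2 calls were near the threshold. Plin4 lost its call without MCD replicate 1 or 3 or M+Fc-GLP-1 replicate 1 or 3 (1.67 to 1.93, adjusted p between 0.0608 and 0.0848) and in a fit of the groups compared alone (adjusted p = 0.0635). Plin5 lost it without MCD replicate 1 or 3 or M+Fc-GLP-1 replicate 3 (0.93 to 1.05, adjusted p between 0.0524 and 0.062), under normexp (0.66, adjusted p = 0.124) and under median centring (0.73, adjusted p = 0.119). Of 7 macrophage markers 3 were lower with the drug and 0 higher, against 2.79% and 4.43% of all genes. The part of these markers' shifts in the differences of Plin4 and Plin5 was not tested.

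Whether the effect of Fc-GLP-1 differed between the diets was tested by the interaction, in which an additive difference between slides cancels. Of 10 members 2 passed it, both positive, against 6.15% of all genes (3.59% positive, 2.56% negative). The median of all genes was 0.15 here and -0.47 under median centring, so that values are also given relative to it. In Plin4 Fc-GLP-1 went with a lower mean on chow and a higher one on the MCD diet, and the effects differed by 3.22 ± 0.76 (adjusted p = 0.015), or 3.07 above the median of all genes. This call held under every alternative, with adjusted p between 0.00555 and 0.0387. In Pnpla2 the effects differed by 1.65 ± 0.44 (adjusted p = 0.0274), or 1.50 above that median. The Pnpla2 call was lost under normexp (1.78, adjusted p = 0.0822), median centring (1.02, adjusted p = 0.118) and in the authors' values (1.79, adjusted p = 0.0758). It was also lost without C replicate 1 (1.48), MCD replicate 1 (1.62), C+Fc-GLP-1 replicate 3 (1.55), C+Fc-GLP-1 replicate 4 (1.43) or M+Fc-GLP-1 replicate 1 (1.56), with adjusted p between 0.0506 and 0.0606. Plin5 (1.13, adjusted p = 0.0702), Plin2 (1.00, adjusted p = 0.0934) and Plin3 (-1.13, adjusted p = 0.118) did not pass. Plin5 passed under normexp (1.54, adjusted p = 0.0412), in the authors' values (1.44, adjusted p = 0.0145) and in a fit of the groups compared (adjusted p = 0.045). Plin3 passed under median centring (-1.76, adjusted p = 0.00613) and without C replicate 2 (-1.45, adjusted p = 0.0414), and Plin2 without C replicate 3 (1.19, adjusted p = 0.0463).

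**Figure D3:**
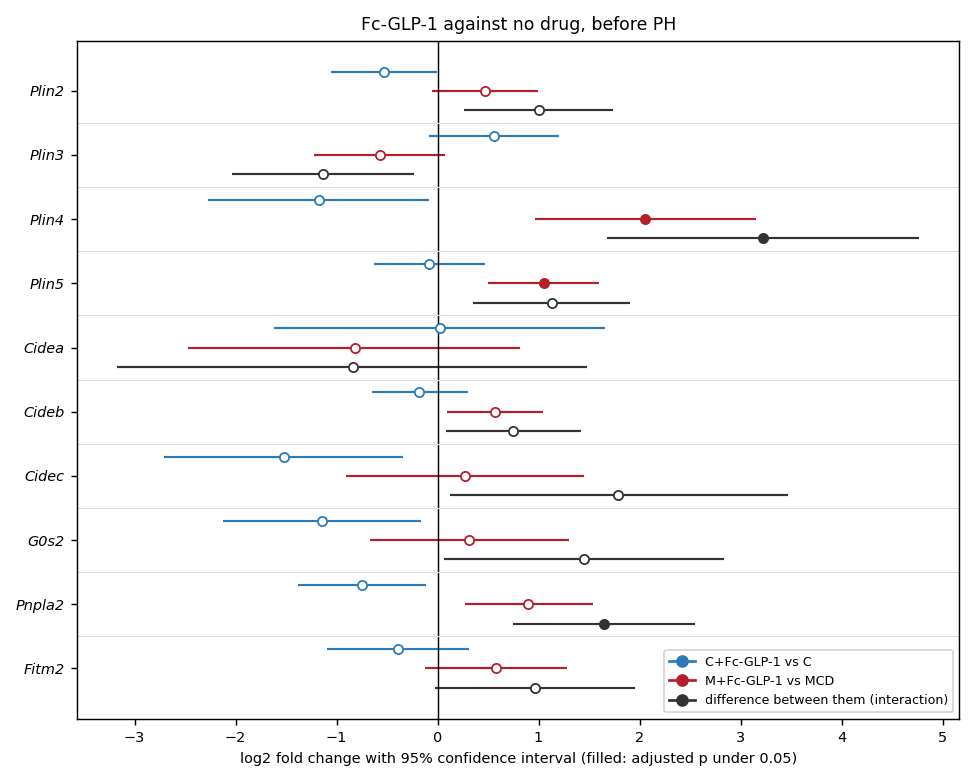
Difference between mice with and without Fc-GLP-1 before PH on chow (blue) and on the MCD diet (red), and the difference between these effects (black), for the 10 genes (rows) as log2 fold change with its 95% confidence interval (x axis), filled where the adjusted p was under 0.05. Neither group with Fc-GLP-1 had an array with Cidea well above background, so that its points are not measured differences. Plin4 is filled on the MCD diet (2.05) and in the difference of effects (3.22), Plin5 on the MCD diet (1.05) and Pnpla2 in the difference (1.65), and no member is filled on chow.

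After PH the diet comparison was made again 2 weeks after it. In untreated mice 6 of 10 members passed the test, all 6 higher in MCD than in C mice, against 12.1% of all genes (6.05% higher, 6.09% lower). The median difference was 1.19 over the members and -0.03 over all genes. Cidec was at 0.06, -1.75, -2.80 and -0.38 in C and at 4.17, 5.14, 2.93 and 5.04 in MCD mice, a rise of 5.53 ± 0.58 or 46.3-fold (adjusted p = 1.8e-07). Plin4 rose by 2.74 ± 0.54 or 6.67-fold (adjusted p = 0.000965), from values of -0.20, 1.21, 0.83 and 1.91 to 3.11, 2.72, 4.55 and 4.32. G0s2 was the member with the next largest fold, at 1.09, 3.42, 2.75 and 2.40 in C and at 4.68, 4.74, 5.50 and 5.59 in MCD mice. Its rise was 2.71 ± 0.48 or 6.54-fold (adjusted p = 0.000325). Pnpla2 rose by 1.37 ± 0.31 (adjusted p = 0.00376), Plin5 by 1.35 ± 0.27 (adjusted p = 0.00117) and Plin2 by 1.03 ± 0.26 (adjusted p = 0.00838), each without overlap. The call of Plin2 was lost under normexp (0.60, adjusted p = 0.098) and in the authors' values (0.61, adjusted p = 0.126). Fitm2 (0.37), Plin3 (0.03), Cidea (-0.44) and Cideb (-0.39) did not pass the test.

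With Fc-GLP-1 after PH, again on a single slide, 6 of 10 members passed, all 6 higher in M+Fc-GLP-1 than in C+Fc-GLP-1 mice, against 12.8% of all genes (6.2% higher, 6.62% lower). The median difference was 1.13 over the members and -0.01 over all genes. Cidec rose by 6.07 ± 0.58 or 67.0-fold (adjusted p = 4.49e-08), from -1.35, -1.41, -2.66 and -2.75 to 3.65, 4.03, 3.39 and 5.01. Plin4 rose by 4.56 ± 0.54 or 23.7-fold (adjusted p = 8.97e-07), from -0.16, 0.78, -0.69 and -0.73 to 4.12, 4.68, 4.53 and 4.13. The same 6 genes passed as in untreated mice after PH. The rises were 1.96 ± 0.27 for Plin5 (adjusted p = 1e-05), 1.88 ± 0.48 for G0s2 (adjusted p = 0.00884), 1.32 ± 0.31 for Pnpla2 (adjusted p = 0.00441) and 0.82 ± 0.26 for Plin2 (adjusted p = 0.0314). Plin2 lost its call without C+Fc-GLP-1 replicate 1 or 3 or M+Fc-GLP-1 replicate 1 or 2 (0.63 to 0.81, adjusted p between 0.0672 and 0.145), with no filter on dim probes (adjusted p = 0.0659) and in a fit of the groups compared (adjusted p = 0.1). G0s2 lost it in the last of these (adjusted p = 0.0508) and without C+Fc-GLP-1 replicate 4 (1.50, adjusted p = 0.0517). Fitm2 differed by 0.69 (adjusted p = 0.208) on its brighter probe and by 1.95 ± 0.33 (adjusted p = 0.000139) on its dimmer one, and the mean of both probes passed the test (1.32, adjusted p = 0.00299).

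After PH no member passed the test of Fc-GLP-1. In chow-fed mice 0 of 10 members passed the limma test, against 2.06% of all genes, and 1 had an unadjusted p under 0.05 (Plin4, -1.14), against 14.7% of all genes. In MCD-fed mice 0 of 10 passed, against 6.5% of all genes (3.71% higher, 2.79% lower), and 0 had an unadjusted p under 0.05, against 22.2%. Both counts were also 0 under normexp and median centring. The difference of Plin4 in MCD-fed mice was 0.69, with a 95% confidence interval from -0.41 to 1.78, and that of Plin5 0.53 (-0.02 to 1.08). Before PH the intervals had been 0.96 to 3.15 for Plin4 and 0.50 to 1.60 for Plin5, and in each gene the intervals of both times overlap. Whether these effects differed between the times was not tested.

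Changes over time were few. In C mice 1 of 10 members passed the test, lower after PH, against 14% of all genes (6.08% higher, 7.87% lower). It was G0s2, at 3.81, 3.92, 4.11 and 4.33 before PH and at 1.09, 3.42, 2.75 and 2.40 after, a fall of 1.62 ± 0.48 (value -1.62, adjusted p = 0.0233). In the same comparison 6 of 7 macrophage markers were higher (median 2.26) and 3 of 5 hepatocyte markers lower (median -0.82), and their part in the fall of G0s2 was not tested. The groups did not overlap, but the adjusted p was 0.127 without C after PH replicate 1 (-1.18), 0.0577 without C before PH replicate 4 (-1.53) and 0.0582 in a fit of these groups alone. Without C before PH replicate 3, Plin2 passed as well (-0.80, adjusted p = 0.0485), and without C before PH replicate 4 Pnpla2 (-0.99, adjusted p = 0.0494). A second Cideb probe was lower after PH in C mice by 0.81 ± 0.27 (value -0.81, adjusted p = 0.0403), where the brighter probe gave -0.22.

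In the other 3 groups 0 of 10 members passed, against 0.835% of all genes in C+Fc-GLP-1 (0.479% higher, 0.356% lower), 9.43% in MCD and 1.71% in M+Fc-GLP-1 mice. At an unadjusted p under 0.05 there were 0, 1 (Plin4, 1.14) and 1 (Cidea), against 15.3%, 23.5% and 16.1% of all genes. Plin4 passed in MCD mice without MCD before PH replicate 4 (1.70, adjusted p = 0.0451). The diet effect under Fc-GLP-1 was tested against time in an interaction in which additive slide differences cancel. There 0 of 10 members passed, against 0.0949% of all genes (0.0475% in either direction), and 0 had an unadjusted p under 0.05, against 9.71%. For Cidec the diet effect was 6.0 before and 6.07 after PH, a difference of 0.06 with a 95% confidence interval from -1.61 to 1.74.

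Among the CIDE genes, Cidea was near the detection limit. Its probe was well above background on 3 of 4 C arrays before PH, on 4 of 4 in MCD and on 0 of 4 in either drug-treated group. After PH it was so on 2 arrays each of C, C+Fc-GLP-1 and MCD mice and on 4 of 4 in M+Fc-GLP-1 mice. Its levels after PH were 0.66, -4.29, -5.71 and -3.61 in C mice and -0.74, -3.47, -4.54 and -3.73 in C+Fc-GLP-1 mice, with replicate 1 highest in both. These arrays stood apart in some other markers, but not in the summed adipocyte level. That level was 3.71 in C replicate 1 against 2.72 to 3.81 on the other C arrays. In C+Fc-GLP-1 replicate 1 it was 3.17, against 1.82 to 3.44. The summed stellate cell level was 4.56 in C replicate 1 against 2.32 to 2.83 on the other C arrays, and 4.27 in C+Fc-GLP-1 replicate 1 against 2.82 to 3.12. Of 4 brown adipocyte markers, Ucp1 and Dio2 were well above background on 0 of 4 arrays of both groups, Cox8b on 2 in C and 3 in C+Fc-GLP-1 mice, and Elovl3 on 4 in both. Elovl3 had by far the highest mean of these in C mice (2.88), followed by Cox8b (-4.68), so that their sum mostly follows Elovl3. Their summed level was -3.0 in C replicate 1 against 4.70 to 5.40 on the other C arrays. In C+Fc-GLP-1 replicate 1 it was 3.93, against 4.21 to 5.24. The summed macrophage level was 8.14 in C replicate 1 against 5.99 to 7.28, and 7.55 in C+Fc-GLP-1 replicate 1 against 6.29 to 6.97. The part of other cells in these levels of Cidea was not tested. M+Fc-GLP-1 mice were at -1.93, -2.21, -3.26 and -1.33 after PH, above all 4 arrays before PH (-4.93, -3.95, -4.65 and -4.67). Against the lowest signal well above background on the arrays before PH, Cidea was 3.39-fold higher after PH. This value is not a lower bound, since brighter probes can also fail to be well above background. The dimmer Fitm2 probe, at -2.32 on M+Fc-GLP-1 replicate 2 before PH, was not well above it. The limma test of Cidea gave an adjusted p of 0.127 (0.0341 in a fit of these groups alone). The 2 Cidec probes, by contrast, correlated over the 32 arrays (r = 0.94). The second Cidec probe was dimmer, well above background on all arrays of the MCD-fed groups and of C mice after PH, but on 1 of 4 C arrays before PH and on 2 of 4 C+Fc-GLP-1 arrays at each time. It was higher on the MCD diet in C and MCD mice after PH by 4.12 ± 0.57 (adjusted p = 1.37e-05), and in the other 3 pairs of groups by fitted values of 3.45 to 4.64 that rest in part on arrays near background. The 2 Cideb probes (r = 0.59) and the 2 Fitm2 probes (r = 0.67) ran less closely together.

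The order of the group means followed the diet in several members. In Cidec and Plin5 the 4 MCD-fed groups held the 4 highest means, and the step between the lowest of them and the highest chow-fed group was the only one without overlap of neighbours. In Plin5 the order from the top was M+Fc-GLP-1 before PH (6.79 ± 0.19, SD, n = 4), M+Fc-GLP-1 after PH (6.45 ± 0.49), MCD after PH (5.91 ± 0.21) and MCD before PH (5.74 ± 0.29). In Plin4 it was the same order, with 4.59 ± 0.75, 4.36 ± 0.28, 3.67 ± 0.90 and 2.54 ± 1.29. G0s2 was highest in MCD mice after PH (5.13 ± 0.48), and its single step without overlap lay between C mice before PH (4.04 ± 0.23) and C+Fc-GLP-1 mice before PH (2.90 ± 0.79). In Plin2, Plin3, Plin4, Cidea, Cideb, Pnpla2 and Fitm2 every pair of neighbouring groups overlapped. The Plin3 means lay within 0.81 of each other, between 4.38 and 5.19.

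Correlations between members over the 32 arrays are descriptions, since the arrays share groups, slides and scaling. Plin4 and Plin5 had the closest pair of patterns (r = 0.89 over 32 arrays and 0.39 after each group's mean was taken off), followed by Plin4 and Cidec (0.87 and 0.19) and Plin4 and Pnpla2 (0.83 and 0.35). Within groups the closest pairs were Plin4 and Fitm2 (0.69 over all arrays and 0.61 within groups), G0s2 and Fitm2 (0.65 and 0.56), Cidea and Cidec (0.11 and 0.54) and Plin2 and Plin4 (0.82 and 0.53). Cideb and Cidec ran in opposite directions (-0.51 and -0.25).

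**Figure D4:**
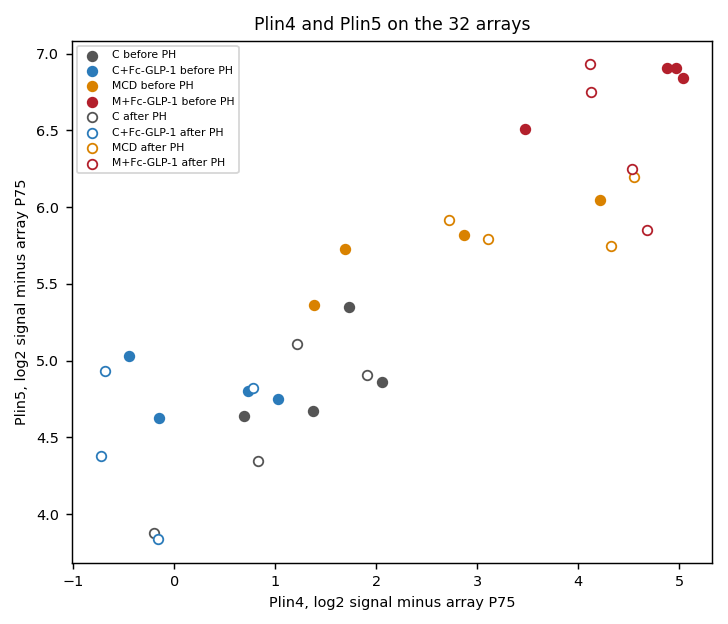
Plin5 (y axis) against Plin4 (x axis) on the 32 arrays, both as log2 signal minus the array's 75th percentile, with colours for the 4 groups, filled points before PH and open points after PH. The chow-fed arrays lie at the lower left, at Plin5 of 5.35 or less, and the M+Fc-GLP-1 arrays at the upper right, with Plin4 of 3.47 or more.

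Outside the family, the genes most alike in pattern over the 32 arrays were taken as the 2 with the highest correlation for each member. For Cidec these were Mfsd2a, a lysophospholipid transporter (r = 0.944), and Aqp4, a water channel (r = 0.937). For Plin5 they were Cpt1a, which carries fatty acids into mitochondrial oxidation (r = 0.90), and 2310081J21Rik (r = 0.885), and for Plin4 Zbed5 (r = 0.936) and Tox (r = 0.933). Plin2 was closest to Lgals4 (r = 0.868) and Lgals6 (r = 0.86), galectin genes so alike in sequence that their probes may not be told apart. Pnpla2 was closest to Slc19a1, a folate carrier (r = 0.891), and Por, which passes electrons to cytochrome P450 enzymes (r = 0.877). The remaining pairs were Abi2 (0.757) and Pdcd10 (0.745) for Plin3, Msantd3 (0.848) and Mfge8 (0.81) for Cidea, and Kiss1 (0.824) and Pex11a (0.817) for Fitm2. Cideb was closest to Nucb1 (0.819) and G0s2 to Pim3 (0.837), each with an unnamed interval of the array design next (0.789 and 0.826).

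Genes of the droplet outside the family were counted in the same way. In MCD against C mice before PH, 10.9% of all genes were higher and 15.5% lower. Of 10 genes of droplet formation and triglyceride synthesis, 1 rose and 1 fell with the MCD diet before PH in untreated mice (median difference 0.07). They were Tmem159, which encodes the seipin partner LDAF1 (1.23, adjusted p = 0.00475), and Fitm1 (-1.45), the muscle counterpart of Fitm2. Fitm1 was lower in all 4 diet comparisons (-1.45, -1.38, -2.39 and -1.37), in 3 of which Fitm2 did not pass on its brighter probe. Lpin1, a phosphatidate phosphatase and PPAR coactivator, was higher with the drug in MCD-fed mice before PH (1.75), where Tmem159 was lower (-1.06).

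Of 12 tested genes for lipases, cofactors and other droplet proteins, 2 rose and 2 fell with the MCD diet before PH (median -0.49). Of all genes 10.9% rose and 15.5% fell. The carboxylesterases Ces1d (-1.02) and Ces3a (-1.40) fell, while Lipa, the lysosomal acid lipase (0.74), and Hsd17b13, a droplet protein of hepatocytes (0.98), rose. With Fc-GLP-1 on the MCD diet Hsd17b11 was higher (1.58) and Faf2 lower (-0.95). Plin1, the perilipin of adipocytes, was too dim to be tested.

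PPAR targets outside the family gave a mixed picture before PH in untreated mice, with 2 of 8 higher and 1 lower (median 0.23). Of all genes 10.9% were higher and 15.5% lower in this comparison. The fatty acid transporter Cd36 (2.21) and the omega-hydroxylase Cyp4a14 (2.08) rose, while Acot1, a cytosolic thioesterase (-2.97), fell. In mice given Fc-GLP-1 before PH 5 of 8 were higher on the MCD diet and 0 lower (median 1.64), against 5.35% of all genes higher. After PH 4 of 8 were higher both without and with the drug, against 6.05% and 6.2%. Of 9 regulators, Srebf1, a driver of lipogenesis, was the only one that passed in untreated mice before PH (-1.69). In M+Fc-GLP-1 against MCD mice Ppargc1a, a coactivator of PPARA (1.68), and Rxra, the partner of PPARs (0.88), rose, Acot1 rose (2.29) and Cd36 fell (-1.56). The direction of Cd36 was thus opposite to that of Plin4 and Plin5 in this comparison. Of the 8 PPAR targets 1 was higher and 1 lower, against 4.43% and 2.79% of all genes. Their median difference was 0.93, against 0.10 over all genes.

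**Figure D5:**
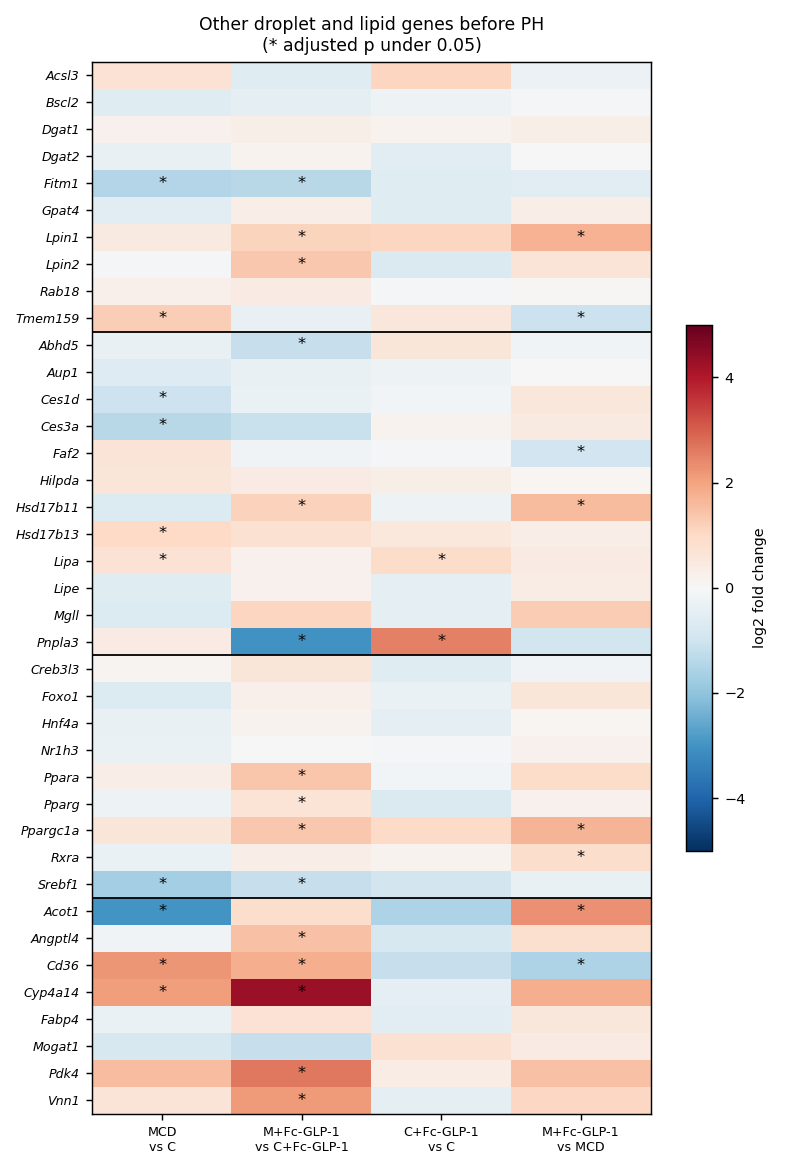
Differences of 39 other genes (rows, grouped from the top as droplet formation and triglyceride synthesis, lipases and other droplet proteins, regulators, and PPAR targets) in 4 comparisons before PH (columns), as log2 fold change in colour from blue (lower) to red (higher), with a star where the adjusted p was under 0.05. Fitm1 and Srebf1 are starred and blue in both diet comparisons, and Cd36 is red with the diet (2.21 and 1.81) and blue with Fc-GLP-1 on the MCD diet (-1.56).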

How the data were processed

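Total liver RNA was hybridized to 1-colour Agilent arrays of 62976 spots (32 arrays, 8 groups of 4). Per the file headers, the authors deposited intensity values from Feature Extraction 10.7.3.1 (protocol GE1_107_Sep09), background corrected within the array, and a table of normalized log2 values, made with limma, whose 75th percentiles stood at 8.57 or 8.58 before PH, 9.24 in untreated and 9.18 or 9.19 in drug-treated arrays after PH, and which are therefore not reported between times or for the drug after PH. Here the log2 of the processed signal was centred on the array's 75th percentile over 59305 non-control spots (209.4 to 778.4 in intensity), spots flagged as outliers were left out, and 426 probes without a usable spot on some array were dropped. Probes were named by RefSeq accession (27650 of 55681) or by the array's own name. A probe was kept (28932 were) if 1 or more groups had it well above background on each of their 4 arrays, and the brightest kept probe stood for its gene. Group means were fitted with limma 3.58.1 (R 4.3.3), from which 14 contrasts were taken. With 4 arrays per group their number limits the precision. In simulated data for MCD against C before PH, with 200 of 21071 genes changed, 29% of changes of 1 and 89% of changes of 2 on the log2 scale were recovered. In the data 5574 genes passed in that comparison, so that these rates do not carry over to it. Where no array of a group had a probe well above background, a fold was taken against the lowest signal well above background of any probe. That signal is not an upper limit for an undetected probe.

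The alternatives were normexp (offset 50) with quantile normalization, median centring, the authors' normalized values within each time, no dim-probe filter, averaging of a gene's probes, only the groups compared, a replicate block and each array left out. All 10 members, the 2 non-member genes most alike to each, and genes of the pathway lists past the threshold in MCD against C or M+Fc-GLP-1 against MCD before PH were named. The members and lists were chosen with earlier results of these data known. Same-numbered arrays of different groups did not deviate together (mean r = 0.017 over 112 pairs), but most of these pairs differ in diet or drug. In the 16 same-numbered pairs of equal diet and drug across PH, mean r was 0.013, against -0.004 in 48 differently numbered ones. Such low correlations cannot exclude that single mice were sampled at both times. Whether replicate numbers pair the samples was thus left undecided, and the main fit treated the samples as separate. Histology, qPCR and gene set collections of the study were not analysed here, and 1 gene of the pathway lists is not reported here.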

Additional observations from a re-analysis of the deposited data

Results flagged for a closer look

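In 80 sets of 4 arrays (10 genes in 8 groups), 5 held an array far from the other 3, where chance gives about 1 in 20. Plin4 was at 3.47 in M+Fc-GLP-1 before PH replicate 2, against 4.88 to 5.04 on the other arrays. Cideb was at 7.58 in C+Fc-GLP-1 after PH replicate 1, against 8.09 to 8.17. Pnpla2 was at 4.50 in MCD before PH replicate 4, against 3.96 to 4.04. Fitm2 was at 3.04 in C after PH replicate 1, against 4.31 to 4.45, and at 3.20 in MCD after PH replicate 1, against 4.62 to 4.89.

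The effect of Fc-GLP-1 before PH differed between the diets in Plin4 by 3.22 and in Pnpla2 by 1.65 on the log2 scale, by the interaction test.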

How the results depend on the processing

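Of 27 member values that passed the test, 0 changed direction among 420 values under the alternatives and 15 kept their call in all of them: Cidec in 4 comparisons, Plin4 in 4, Plin5 and Pnpla2 in 3 each and G0s2 in 1. With the replicate block 27 of 27 kept their call and the counts were those of the main fit, 3 in MCD against C before PH among them. This block joins same-numbered arrays of all 8 groups and does not pair single mice before and after PH. Under normexp the counts of members called were 2 in C+Fc-GLP-1 against C and 5 in M+Fc-GLP-1 against MCD before PH, and in the authors' values 2 and 6. The latter was 1 under median centring and 1 in a fit of only the groups compared, which also gave 0 for C after against before PH and 1 for M+Fc-GLP-1 after against before PH. The highest minus the lowest group mean was 1.47 for Plin3 (0.81 in the main setting) and 0.87 for Cidea (2.37) under normexp. The cause of these shifts was not tested.

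Leaving out 1 array at a time, 2 to 4 members passed in MCD against C before PH, 0 to 3 in M+Fc-GLP-1 against MCD before PH, 5 to 7 in M+Fc-GLP-1 against C+Fc-GLP-1 before PH and 5 to 6 after PH, 6 in MCD against C after PH, 1 to 3 in the interaction before PH, 0 to 2 in C and 0 to 1 in MCD after against before PH, and 0 in the rest. Signal over background limits Cidea, whose probe was well above background on all 4 arrays in MCD mice before PH and M+Fc-GLP-1 mice after PH only.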

Other observations

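Pnpla3, a paralogue of Pnpla2 on the droplet of hepatocytes, is named here after its values were seen. It was higher in C+Fc-GLP-1 than in C mice before PH (2.52 ± 0.61 on the log2 scale, adjusted p = 0.0282) and after PH (2.58 ± 0.61, adjusted p = 0.0225), and on the drug lower with the MCD diet than with chow before PH (-3.03 ± 0.61, adjusted p = 0.0014) and after PH (-2.92 ± 0.61, adjusted p = 0.00158). Its interaction of diet and Fc-GLP-1 before PH was -3.44 ± 0.87 (adjusted p = 0.0205), opposite in sign to that of Pnpla2. Slide and drug cannot be told apart in the first 2 of these values.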
